A study of Mus musculus with 8 samples.

Results

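Creatine carries phosphate between the sites where a cell makes ATP and the sites where it spends it. The pathway was followed here through 7 genes in germinal centre (GC) B cells, which divide, mutate and compete for antigen inside lymphoid follicles: Gatm, Gamt, Slc6a8, Ckb, Ckm, Ckmt1 and Ckmt2. They were taken by symbol from the 23471 entries of 2 deposited tables, and all 7 were found. Gatm was chosen by its RPKM ratio between the genotypes in these same data, where it was lower in the libraries of Irf8 cKO cells, so its difference is described here without a test. The other 6 were added for their place in the pathway.

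RNA was measured in 4 libraries of sorted GC B cells from C57BL/6 mice. The Irf8 cKO group carried Irf8flox/flox together with 1 copy of a Cre allele that acts in the B lineage, and the Ctrl group carried the same Cre allele with intact Irf8+/+. All mice were immunized with NP-KLH, a hapten coupled to hemocyanin, and B220+ cells high for both FAS and GL7 were taken by sorting on day 13. Experiments 1 and 2 each gave 1 Irf8 cKO and 1 Ctrl library, so n = 2 per group, and the labels do not say whether the libraries came from separate or pooled animals. B cells cultured for 72 hours in 10 µg/mL lipopolysaccharide make up the remaining 4 samples, not analysed here.

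In creatine synthesis, the enzyme encoded by Gatm moves the amidino group of arginine onto glycine, which gives guanidinoacetate and ornithine. The enzyme encoded by Gamt then methylates guanidinoacetate to creatine with S-adenosylmethionine as the methyl donor. Slc6a8 encodes the transporter that brings creatine into the cell. Creatine kinases join creatine and phosphate: Ckb encodes the cytosolic form best known from brain, Ckm that of muscle, Ckmt1 the ubiquitous mitochondrial form and Ckmt2 the mitochondrial form of striated muscle.

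Gatm (NM_025961) lies on the minus strand of chromosome 2 at chr2:122594473-122611277 in the deposited coordinates, which are those of mm10. The GENCODE transcript matched to it has 9 exons and 2389 bases, of which 1269 are coding, and no other annotated gene overlaps it (0 found), so its reads have no antisense partner to be confused with. Upstream sequence was available for 6 of the 7 genes. The 250 bases before the start of Gatm are shown because this is the gene that differed, and those of Ckb because it was the most abundant of the other 6. Both are from RefSeq on GRCm38.p6, read 5′ to 3′ on the strand of the gene, at chr2:122611278-122611527 (minus strand) and chr12:111672339-111672588 (minus strand). Capitals mark matches to the motifs named below.
Gatm: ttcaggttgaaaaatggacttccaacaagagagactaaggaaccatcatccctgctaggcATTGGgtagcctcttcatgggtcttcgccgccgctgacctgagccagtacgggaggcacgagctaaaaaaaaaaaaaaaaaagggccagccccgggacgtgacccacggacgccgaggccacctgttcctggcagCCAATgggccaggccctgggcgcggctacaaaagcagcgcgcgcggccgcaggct
Ckb: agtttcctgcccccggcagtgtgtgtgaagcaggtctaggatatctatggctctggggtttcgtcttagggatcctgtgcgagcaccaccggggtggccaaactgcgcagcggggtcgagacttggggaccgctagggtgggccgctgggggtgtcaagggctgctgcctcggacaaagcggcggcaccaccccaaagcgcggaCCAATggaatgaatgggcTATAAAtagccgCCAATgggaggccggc

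Both strands were searched for 5 motifs. The first was GGAA followed, after any 2 bases, by GAAA, the composite element (EICE) bound by an ETS factor with IRF8 or IRF4. The second was GAAA followed, after any 2 bases, by GAAA, an interferon response type of IRF element. The others were the TATA box TATAAA, the CCAAT box CCAAT and TGACGT, part of the cyclic AMP response element. Neither IRF-type motif was found in the window of any of the 6 genes, and they occurred in 2.30% and 2.98% of the 32851 windows of the same length in the table. TGACGT was in none of the 6 either, and in 6.47% of all windows. The Gatm window held 2 CCAAT matches, on its own strand 51 to 55 bases before the start and on the other strand 186 to 190 bases before it. CCAAT occurred in 33.8% of all windows. Ckb held CCAAT at 12 to 16 and 42 to 46 bases before its start and TATAAA, found in 12.4% of windows, at 23 to 28 bases. None of the matches in Gatm and Ckb overlapped another. CCAAT was also found in the windows of Ckmt1 and Ckmt2, and TATAAA in that of Ckmt1. Letters in a window are a description and do not show whether a factor binds there or elsewhere near the gene.

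Gatm RNA was lower in both libraries labelled Irf8 cKO than in either Ctrl library. Levels are given as deposited, in RPKM, reads per length of transcript and per mapped reads of the library. Gatm measured 0.194 RPKM in the library labelled Irf8 cKO 1 and 0.410 RPKM in its counterpart, labelled Irf8 cKO 2, against 5.14 in Ctrl 1 and 3.84 in Ctrl 2. The groups did not overlap, and the highest Irf8 cKO value was far under the lowest Ctrl value. The share of all tested entries without overlap was not counted. The means were 0.302 ± 0.153 RPKM in the libraries labelled Irf8 cKO and 4.49 ± 0.920 RPKM in Ctrl (SD, n = 2 each). These are bulk samples, in which fewer cells with Gatm RNA and less Gatm RNA per cell cannot be told apart.

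The reads behind these levels can be estimated, since low RPKM step by the worth of 1 read. For the libraries labelled Irf8 cKO the estimated totals were 76200000 and 63900000 reads, against 73300000 and 63300000 reads for Ctrl. At those totals Gatm had about 35.4 and 62.6 reads in the libraries labelled Irf8 cKO, against about 899.8 and 580.4 reads in Ctrl. The low levels in Irf8 cKO thus rest on few reads, but above the level of 3 reads, 0.0165 and 0.0197 RPKM, that a count of 0 would allow in those 2 libraries. In the order of all 23471 entries, Gatm stood above 58.0% and 67.7% of entries in the libraries labelled Irf8 cKO, and above 92.1% and 90.5% in Ctrl.

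The size of the difference was not the same in the 2 experiments. Within its own table, the library labelled Irf8 cKO 1 had 0.0378 of the Gatm RPKM of Ctrl 1, a level 26.5-fold lower. The library labelled Irf8 cKO 2 had 0.107 of that of Ctrl 2, a level 9.36-fold lower. On the log2(RPKM + 1) scale, which understates the change of low genes, the ratios were -2.36 and -1.78, with a mean of -2.07 and an SD of 0.41 over the 2 experiments. The authors' deposited tables give Gatm a log2 ratio of -4.52 (unadjusted p = 2.24e-18) in experiment 1 and -2.51 (unadjusted p = 1.69e-05) in experiment 2, each from 1 library against 1 library, so these p-values carry no spread between replicates. These deposited ratios are higher than the plain log2 RPKM ratio by a constant that is near 0.205 for most genes in experiment 1 and near 0.721 in experiment 2.

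Most tested genes, 92.4%, had a lower mean in the libraries labelled Irf8 cKO, and the Gatm ratio lay far beyond that shift. Over the 6447 entries with 1 RPKM or more in at least 2 libraries, the median log2 ratio was -0.18 for experiment 1 and -0.51 for experiment 2. Scaled by median of ratios, so that the typical gene is level across libraries, Gatm was at 0.182 and 0.623 RPKM in the libraries labelled Irf8 cKO, against 4.03 and 3.38 RPKM in Ctrl. The scaled levels were 22.1-fold lower in experiment 1 and 5.42-fold lower in experiment 2, and the mean log2 ratio was -1.76. Counted from the lowest ratio among the 6447, Gatm was number 2 in experiment 1 and number 7 in experiment 2, and number 2 by the mean both as deposited and after scaling. These ranks describe how the gene was picked and are not evidence for the difference.

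**Figure D1:**
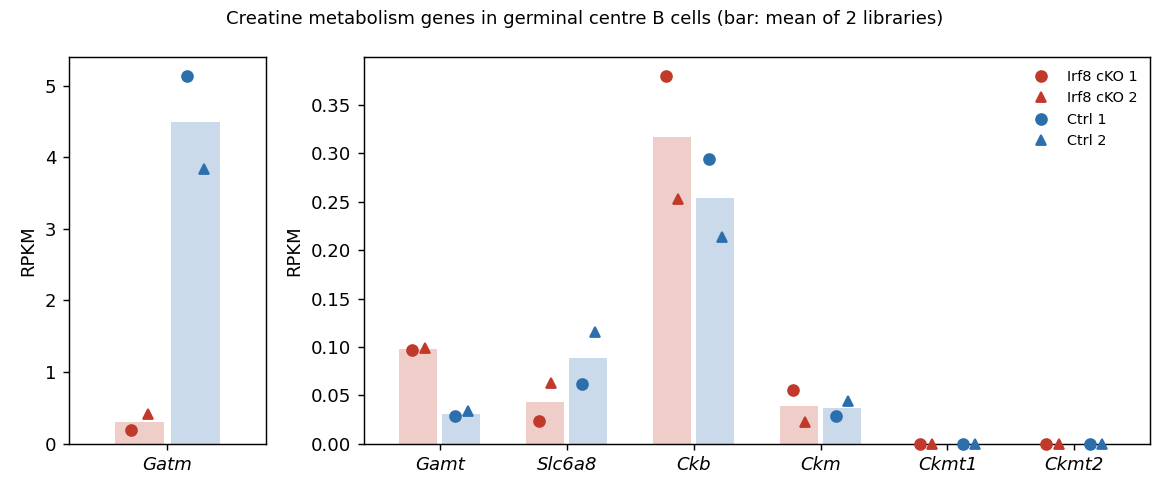
RPKM (vertical axes, linear from 0) of the 7 creatine genes in the libraries labelled Irf8 cKO (red, left of each pair) and Ctrl (blue, right), with experiment 1 as circles, experiment 2 as triangles and the mean of 2 libraries as bars. Gatm is on its own axis: its Irf8 cKO values of 0.194 and 0.410 lie far under Ctrl values of 5.14 and 3.84, while the other 6 genes stay at or under 0.381 RPKM in every library.

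None of the other 6 genes reached 1 RPKM in any library, and so none entered the fit over all genes. Their highest value was 0.381 RPKM, that of Ckb in the library labelled Irf8 cKO 1. In Ctrl, Gatm was 17.5 and 18.0 times as abundant per length as Ckb, the next of the 7 genes. Among the libraries labelled Irf8 cKO it was at 0.510 of the Ckb level in experiment 1 and at 1.62 times that level in experiment 2. The 4 of these genes with any reads were fitted once without the filter on low values (limma, adjusted over 15559 entries), and 0 of 4 passed, where 0.00% of all entries did. At an unadjusted p under 0.05 that fit gave 1 of the 4, Gamt, and over all entries 1694 lower and 291 higher.

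Gamt (NM_010255, chr10:80258151-80260968), the second step of synthesis, was near the limit of detection. It measured 0.0970 and 0.0990 RPKM in the libraries labelled Irf8 cKO, against 0.0288 and 0.0334 RPKM in Ctrl. Both Irf8 cKO values were above both Ctrl values, opposite in direction to Gatm, but they rest on about 7 and 6 reads in Irf8 cKO against about 2 and 2 in Ctrl. The ratio of Irf8 cKO over Ctrl was 3.37 in experiment 1 (95% exact interval 0.641 to 33.2) and 2.97 in experiment 2 (0.531 to 30.1), and both intervals hold a ratio of 1. These and the other intervals on reads cover counting error only, of 1 library against 1. The log2 ratio without the filter was 0.09 ± 0.04 (SE; limma, unadjusted p = 0.0352, adjusted p = 0.364).

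Slc6a8 (chrX:73673133-73682500), the creatine transporter, measured 0.0231 and 0.0630 RPKM in the libraries labelled Irf8 cKO, against 0.0618 and 0.115 RPKM in Ctrl. The lower Ctrl value lay under the higher Irf8 cKO value, so the groups overlapped. With about 6 and 13 reads in Irf8 cKO against about 15 and 24 in Ctrl, the ratio was 0.385 (95% exact interval 0.122 to 1.05) in experiment 1 and 0.537 (0.251 to 1.10) in experiment 2. The fit without the filter gave a log2 ratio of -0.06 ± 0.04 (SE; limma adjusted p = 0.492). After scaling it was -0.02, with no test.

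Among the creatine kinases Ckb was the one with the most RNA. Ckb (NM_021273, chr12:111669355-111672338) measured 0.381 and 0.253 RPKM in the libraries labelled Irf8 cKO, against 0.294 and 0.213 RPKM in Ctrl. The Irf8 cKO value was above the Ctrl value within each experiment, and the groups overlapped. About 43 and 24 reads in Irf8 cKO against about 32 and 20 in Ctrl gave ratios of 1.29 (95% exact interval 0.799 to 2.11) and 1.19 (0.629 to 2.27). The log2 ratio was 0.07 ± 0.11 (SE; limma without the filter, adjusted p = 0.820), so no difference was detectable at this depth. Without Irf8 cKO 1 the log2 ratio of Ckb was -0.00012.

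Ckm (NM_007710, chr7:19411094-19421583) measured 0.0555 and 0.0220 RPKM in the libraries labelled Irf8 cKO, against 0.0288 and 0.0446 RPKM in Ctrl, at most about 12 reads in any library. Ckm was higher in Irf8 cKO in experiment 1 and lower in experiment 2. Ckmt1 (NM_009897, chr2:121358641-121363737) and Ckmt2 (NM_198415, chr13:91853387-91876885) were listed at 0 in all 4 libraries. A count of 0 allows up to 0.0243 and 0.0290 RPKM for Ckmt1 in the libraries labelled Irf8 cKO and 0.0253 and 0.0293 RPKM in Ctrl, on the limit of 3 reads. For Ckmt2 the limits were 0.0265 and 0.0316 RPKM in Irf8 cKO and 0.0275 and 0.0319 RPKM in Ctrl. Neither mitochondrial kinase was detectable at this depth in either genotype. Of the 11 markers of skeletal and heart muscle examined, the tissue in which Ckm and Ckmt2 are abundant, none exceeded 0.591 RPKM, and the sum of the list was 0.146 and 0.212 RPKM in the libraries labelled Irf8 cKO and 0.680 and 0.764 RPKM in Ctrl.

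The identity of the sorted cells and of Irf8 itself bears on how these values can be read. All 12 GC B cell markers found in the tables were present in every library, from 3.02 to 101.8 RPKM. Their sum was 338.1 and 217.5 RPKM in the libraries labelled Irf8 cKO, against 482.0 and 412.4 RPKM in Ctrl. Of the 12, 1 was called lower, Ms4a1 (log2 ratio -1.23 ± 0.34 SE, limma adjusted p = 0.0356), where 1.10% of all tested entries were. After scaling Ms4a1 was at -0.72 (limma adjusted p = 0.390). Irf8 measured 20.6 and 11.6 RPKM in the libraries labelled Irf8 cKO, against 14.5 and 14.9 RPKM in Ctrl, so its transcript over all exons was not lower in both. The log2 ratio of Irf8 was 0.08 ± 0.35 (SE; limma adjusted p = 0.880). After scaling it was 0.56, higher in the libraries labelled Irf8 cKO (limma unadjusted p = 0.0149, adjusted p = 0.396). The authors' deposited tables give Irf8 a log2 ratio of 0.717 (unadjusted p = 0.0237) in experiment 1 and 0.366 (unadjusted p = 0.278) in experiment 2. The deleted exons are not resolved in a value over the whole transcript. Directions are therefore those of the libraries as labelled. Of the 6447 entries tested with limma, at an adjusted p under 0.05 there were 71 lower and 6 higher in Irf8 cKO (1.10% and 0.0931%), so that 92.2% of calls were lower. At an unadjusted p under 0.05 there were 1214 entries, 18.8%. After scaling, 6 fell and 2 rose (0.0931% and 0.0310%), so that 75% were lower. Without the experiment block there were 19 lower and 2 higher, and leaving out 1 library gave from 0 lower (without Ctrl 1) to 1448 lower (without Irf8 cKO 1).

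The summed transcripts of neutrophils varied with the group and, more widely, with the experiment, and their part in the Gatm difference was not tested. Of 8 neutrophil markers 3 were tested, and all 3 (S100a8, S100a9 and Ngp) fell, where 1.10% of all entries did. None of the 3 was called without Ctrl 1 (limma adjusted p = 0.9997 for each). Without Irf8 cKO 2 none was called either (limma adjusted p from 0.919 to 0.9999), and without Ctrl 2 Ngp was not (limma adjusted p = 0.0702). Among the 5 that were not tested Csf3r was higher in Irf8 cKO in both experiments, with means of 0.323 ± 0.0870 RPKM in Irf8 cKO and 0.163 ± 0.0534 RPKM in Ctrl (SD, n = 2 each). Mpo was at 0.0411 and 0.110 RPKM in Irf8 cKO, against 0.550 and 0 RPKM in Ctrl. These 2 were chosen after their values were seen. For all 8 the summed level was 12.5 and 1.61 RPKM in the libraries labelled Irf8 cKO, against 64.2 and 6.58 RPKM in Ctrl. After scaling Ngp still passed (limma adjusted p = 0.0454), and S100a8 and S100a9 did not (limma adjusted p = 0.295 and 0.222). For 11 macrophage markers the sum was 10.3 and 2.28 RPKM in Irf8 cKO and 17.9 and 4.96 RPKM in Ctrl. Lyz2 alone gave 9.34 and 0.988 RPKM of it in Irf8 cKO, and 16.5 and 3.47 RPKM in Ctrl. Another 4 of the 11, among them C1qb and Cd14, were at 0 in every library. Beside the neutrophil sums, Gatm was at 0.194 and 0.410 RPKM in the libraries labelled Irf8 cKO, against 5.14 and 3.84 RPKM in Ctrl. Within each experiment the neutrophil sum and Gatm were both lower in Irf8 cKO, and across experiments their order of libraries differed. Of 8 T cell markers only Cd2, which B cells also express, exceeded 0.1 RPKM in any library. Cd2, the only 1 of the 8 tested, was called lower (log2 ratio -1.25 ± 0.30 SE, limma adjusted p = 0.00745), where 1.10% of all tested entries were. After scaling Cd2 was at -0.84 (limma adjusted p = 0.222). For 7 dendritic cell markers the sum was 1.03 and 0.990 RPKM in Irf8 cKO against 1.37 and 1.79 RPKM in Ctrl, most of it from Flt3.

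The genes around Gatm were measured too, most of them at low levels. Of 20 other genes whose start lies within 500 kb of that of Gatm, 4 were tested and 0 were called (limma), with 1 of the 4 at an unadjusted p under 0.05. Over all tested entries 1.19% were called and 18.8% were under 0.05 unadjusted, so 0 of 4 is near the background. Slc28a2, which encodes a nucleoside transporter and starts 184.8 kb from Gatm, measured 3.62 and 2.29 RPKM in the libraries labelled Irf8 cKO, against 4.04 and 3.95 RPKM in Ctrl. It was at a level like that of Gatm in Ctrl, and its log2 ratio was -0.36 ± 0.30 (SE; limma adjusted p = 0.429), beside a median of -0.35 over all tested genes. After scaling it was 0.04, with the sign reversed.

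Bloc1s6, which encodes a subunit of a complex that builds lysosome-related organelles, starts 127.2 kb on the other side. It measured 0.988 and 0.321 RPKM in the libraries labelled Irf8 cKO, against 1.09 and 1.01 RPKM in Ctrl (log2 ratio -0.34 ± 0.21 SE; limma adjusted p = 0.319). After scaling it was at -0.15. In the fit that left out Irf8 cKO 1 and had no experiment block, it was called lower, at -0.63 (adjusted p = 0.0475), as were 1448 genes in all. B2m, the light chain of MHC class I, measured 51.6 and 50.6 RPKM in the libraries labelled Irf8 cKO, against 127.1 and 63.3 RPKM in Ctrl. Its log2 ratio was -0.80 ± 0.34 (SE; limma adjusted p = 0.211), from -1.28 in experiment 1 and -0.32 in experiment 2. After scaling B2m was at -0.28. Spg11, linked to lysosome renewal, averaged 1.28 ± 0.311 RPKM in the libraries labelled Irf8 cKO and 1.67 ± 0.0689 RPKM in Ctrl (SD, n = 2 each), with a log2 ratio of -0.23 ± 0.25 (SE; limma adjusted p = 0.526) that became 0.07 after scaling.

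The gene nearest to the start of Gatm, Spata5l1 at 19.3 kb, measured 0.376 and 0.212 RPKM in the libraries labelled Irf8 cKO, against 0.185 and 0.441 RPKM in Ctrl. It was higher in Irf8 cKO in experiment 1 and lower in experiment 2. AA467197, at 26.6 kb, measured 0.163 and 0.0974 RPKM in Irf8 cKO, against 0 and 0.0492 RPKM in Ctrl (limma without the filter, adjusted p = 0.350). Its Irf8 cKO values were both above its Ctrl values. Slc30a4, a zinc transporter gene 91.4 kb away, measured 0.124 and 0.211 RPKM in Irf8 cKO, against 0.253 and 0.265 RPKM in Ctrl. Of the 16 neighbours that were not tested, 5 were at 0 in all 4 libraries and the highest value was 1.16 RPKM, that of Sord in the library labelled Irf8 cKO 1.

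**Figure D2:**
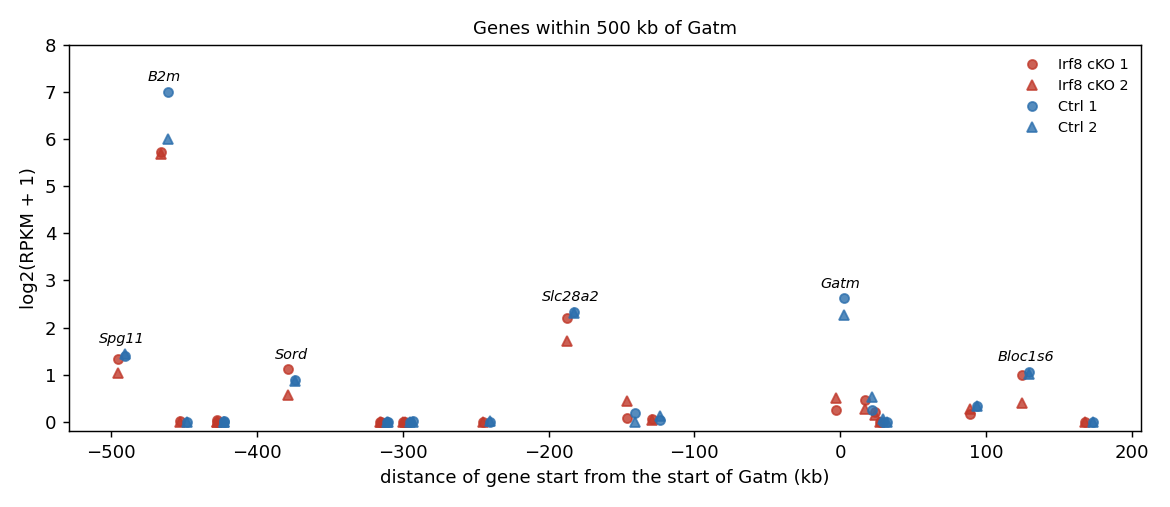
Levels as log2(RPKM + 1) (vertical axis) of Gatm and the 20 genes within 500 kb, placed by the distance in kb of their start from that of Gatm along chromosome 2, in the libraries labelled Irf8 cKO (red, drawn slightly to the left) and Ctrl (blue), with experiment 1 as circles and experiment 2 as triangles. The tested genes and Sord are named. At Gatm the red points lie far under the blue ones, and none of the 4 tested neighbours passed the test.

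Metabolism around creatine synthesis and use was described through 5 lists of 95 genes, of which 94 were in the tables and 44 were tested. In all, 1 gene fell, 0 rose and 43 did not pass (limma, adjusted p over all tested genes), with 13 of the 44 at an unadjusted p under 0.05, where 18.8% of all tested entries were. That is 2.27% called lower, beside the 1.10% of all tested entries. The median log2 ratio over the 44 genes was -0.44, beside -0.35 over all tested genes, and after scaling -0.11, beside 0.0036.

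The arginine and ornithine list covers the handling of a substrate and a by-product of the Gatm reaction. Of 22 on the list 6 were tested, and 1 fell while 5 did not pass, with 4 of the 6 at an unadjusted p under 0.05, beside the 18.8% of all tested entries. After scaling, or without the experiment block, none of the lists held a called gene. Leaving out Ctrl 1, Ctrl 2 or the library labelled Irf8 cKO 2 also gave 0 called genes, and leaving out Irf8 cKO 1 gave 19. The median of the 6 was -0.55, and -0.24 after scaling.

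Oat, which encodes the aminotransferase that breaks down ornithine, measured 2.94 and 0.839 RPKM in the libraries labelled Irf8 cKO, against 3.85 and 2.36 RPKM in Ctrl. Its log2 ratio was -0.59 ± 0.28 (SE; adjusted p = 0.248). Slc7a1, a main importer of arginine, measured 3.12 and 1.72 RPKM in Irf8 cKO, against 3.72 and 3.09 RPKM in Ctrl (log2 ratio -0.39 ± 0.29 SE; adjusted p = 0.376). The arginine-making enzymes Ass1 and Asl were under 1 RPKM throughout, and Ass1 was at 0 in 3 of 4 libraries. Oat, Slc7a1, Ass1 and Asl were picked for their roles once their values were known.

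Of 12 polyamine genes, which use ornithine, 7 were tested and none passed, with 3 of the 7 at an unadjusted p under 0.05, beside the same 18.8%. Odc1, the decarboxylase that begins polyamine synthesis, measured 9.82 and 3.82 RPKM in the libraries labelled Irf8 cKO, against 14.5 and 8.98 RPKM in Ctrl, with a log2 ratio of -0.78 ± 0.34 (SE; limma adjusted p = 0.221) and -0.33 after scaling. Azin1, an inhibitor of the antizyme that restrains this enzyme, was at -0.66 ± 0.33 (adjusted p = 0.260). The median of the 7 was -0.46.

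Glycine is the second substrate of the Gatm enzyme. Of 19 genes of glycine, serine and one-carbon metabolism, 12 were tested and none passed. At an unadjusted p under 0.05 (limma) there was 1 of the 12, beside 18.8% of all tested entries. Shmt2, the mitochondrial enzyme that makes glycine from serine, averaged 5.87 ± 2.64 RPKM in the libraries labelled Irf8 cKO and 9.74 ± 3.60 RPKM in Ctrl (SD, n = 2 each; log2 ratio -0.66 ± 0.33 SE; limma adjusted p = 0.260). Psat1, an enzyme of serine synthesis, measured 11.9 and 4.66 RPKM in Irf8 cKO, against 16.9 and 9.09 RPKM in Ctrl (-0.65 ± 0.34; adjusted p = 0.270). After scaling Shmt2 was at -0.21 and Psat1 at -0.19, and the median of the 12 was -0.38 as deposited and -0.04 after scaling.

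Of 16 genes of methionine and methyl transfer, which make the methyl donor of the Gamt reaction, 5 were tested and none passed. At an unadjusted p under 0.05 (limma) there were 0 of the 5, beside 18.8% of all tested entries. Mat2a, the catalytic subunit of S-adenosylmethionine synthetase, measured 12.9 and 6.41 RPKM in the libraries labelled Irf8 cKO, against 16.9 and 10.5 RPKM in Ctrl (log2 ratio -0.50 ± 0.34 SE; limma adjusted p = 0.350). Mat2b, its regulatory subunit, was at -0.47 ± 0.25 (adjusted p = 0.270). After scaling they were at -0.03 and -0.19. The guanidinoacetate step competes for this donor with Gnmt, Nnmt and Pemt, named here for that role, and each of these was under 1 RPKM in every library.

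Of 26 genes of phosphotransfer and energy sensing 14 were tested and none passed. At an unadjusted p under 0.05 (limma) there were 5 of the 14, beside 18.8% of all tested entries. Vdac1, a pore of the outer mitochondrial membrane that passes adenine nucleotides and other metabolites, measured 5.21 and 2.99 RPKM in the libraries labelled Irf8 cKO, against 7.30 and 9.13 RPKM in Ctrl. Vdac2, a related pore, measured 11.0 and 4.90 RPKM in Irf8 cKO, against 16.3 and 10.4 RPKM in Ctrl. The groups did not overlap for Vdac1 and did for Vdac2. Slc28a2, Bloc1s6, B2m and Spg11, the tested neighbours of Gatm, did not overlap either. The share of all tested entries without overlap was not counted, and 92.4% of them had a lower mean in Irf8 cKO. Vdac1 and Vdac2 were at -0.88 ± 0.32 and -0.74 ± 0.34 on the log2 scale (SE; limma adjusted p = 0.154 and 0.238), and at -0.45 and -0.27 after scaling. The median of the 14 was -0.48, and -0.14 after scaling.

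**Figure D3:**
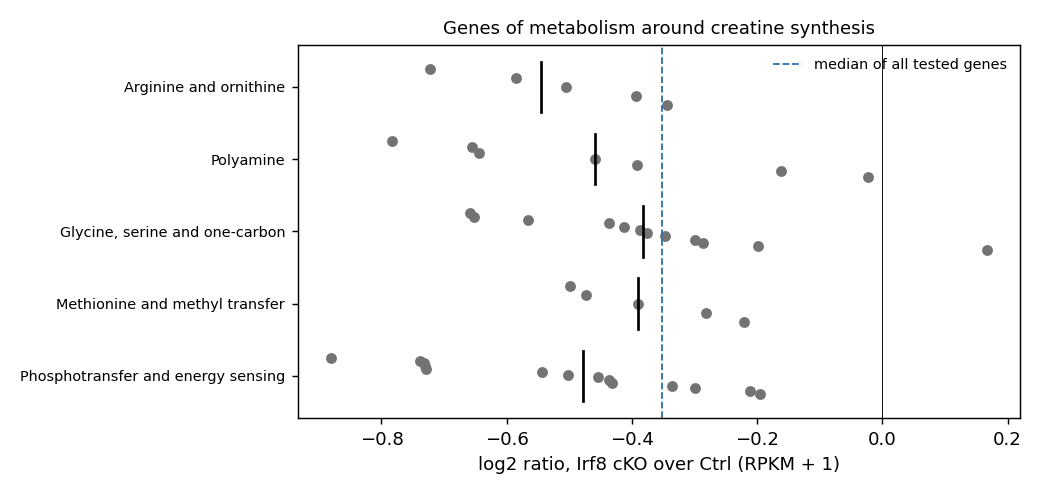
Log2 ratio of Irf8 cKO over Ctrl on the log2(RPKM + 1) scale (horizontal axis) for the 43 genes of 5 lists (rows) that were tested and did not pass, each gene as a point, with the median over all tested genes of each list as a black bar and the median of all tested genes, -0.35, as a dashed line. The list medians run from -0.55 to -0.38.

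The genes whose 4 values ran most like those of Gatm were Kmo, Rnase6, Snord34, Sepp1 and Havcr1. Likeness was the Euclidean distance between profiles of log2(RPKM + 1) over the 4 libraries, each centred on its gene's mean, among 6446 other entries, and the 5 distances ran from 0.416 to 0.842 beside a median of 1.83. The same 5 genes were nearest after scaling. Because Gatm was chosen for its difference between the groups, genes that resemble it differ between them too, and their ratios are described without a test.

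Kmo, a hydroxylase of tryptophan breakdown, measured 0.874 and 0.836 RPKM in the libraries labelled Irf8 cKO, against 5.41 and 5.32 RPKM in Ctrl. Rnase6, a secreted ribonuclease with antimicrobial activity, measured 1.04 and 1.05 RPKM in Irf8 cKO, against 5.81 and 5.39 RPKM in Ctrl. Both were at nearly the Ctrl level of Gatm, and the ratio of Irf8 cKO over Ctrl was 0.161 and 0.157 in experiments 1 and 2 for Kmo and 0.179 and 0.195 for Rnase6, beside 0.0378 and 0.107 for Gatm.

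Sepp1, the selenium carrier selenoprotein P, measured 2.27 and 1.11 RPKM in Irf8 cKO, against 9.62 and 5.09 RPKM in Ctrl. Havcr1, the surface receptor TIM-1, measured 2.88 and 1.08 RPKM in Irf8 cKO, against 13.4 and 11.9 RPKM in Ctrl. Snord34, a small nucleolar RNA whose short length makes its RPKM rest on very few reads, was listed at 0 in both libraries labelled Irf8 cKO, against 2.47 and 1.43 RPKM in Ctrl. The 5 genes lie on 5 chromosomes other than that of Gatm. In their upstream windows the interferon response type of motif was found in Rnase6 and EICE in none of them.

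**Figure D4:**
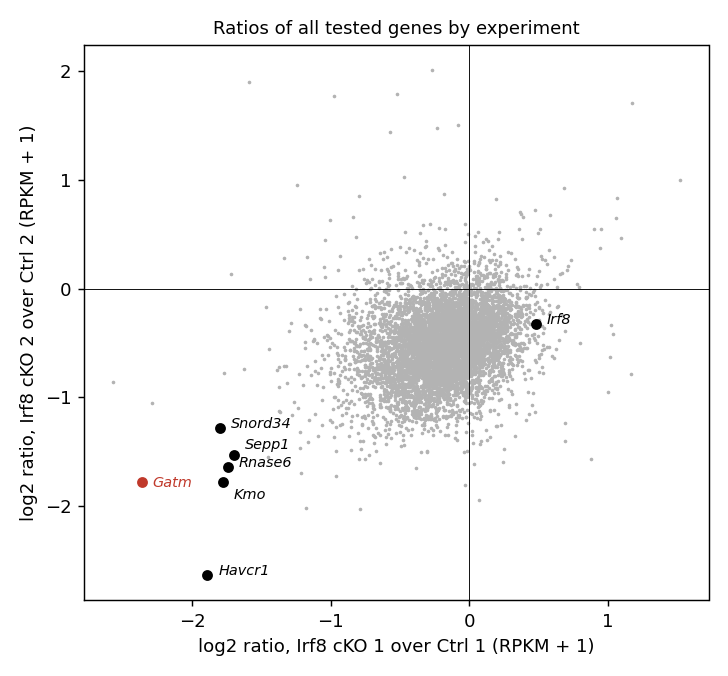
Log2 ratio on the log2(RPKM + 1) scale of the library labelled Irf8 cKO 1 over Ctrl 1 (horizontal axis) and of the library labelled Irf8 cKO 2 over Ctrl 2 (vertical axis) for the 6447 tested entries (grey), with Gatm in red and the 5 genes most like it, and Irf8, in black. The cloud is displaced to medians of -0.18 and -0.51, Gatm lies at -2.36 and -1.78, and Irf8 lies on opposite sides of 0 in the 2 experiments.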

How the data were processed

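The authors deposited RPKM values for each RefSeq entry, in a separate table for each experiment, made in Wardrobe per the series design text. Per the labels' protocols, Ovation RNA-Seq System v2 amplification preceded Nextera XT library preparation. Amplification of little RNA can add noise to low genes. Cuffdiff, Cufflinks 2.2, TopHat2 2.0, DESeq and the builds mm10 and mm9 are named, without roles, per the submitters' processing notes. The authors' own log2 ratio and unadjusted p-value stand beside the RPKM, per the file headers.

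The 23471 entries were kept apart by RefSeq accession. Genotype effects on log2(RPKM + 1), blocked by experiment and leaving 1 residual degree of freedom, were estimated in limma 3.58.1 (R 4.3.3; eBayes with trend, 2-sided) over the 6447 entries reaching 1 RPKM in at least 2 libraries, with Benjamini-Hochberg adjustment at 0.05. The prior degrees of freedom were infinite as deposited. Each SE of that fit thus reflects genes of similar level and not the gene's own spread. The prior was 6.62 after scaling and 10.4 without the filter, the fit that gave each SE for Gamt, Slc6a8 and Ckb. Replicates may be technical, and p-values reflect only spread within these samples, in the fit as deposited that of genes of similar level. The fit was tried on simulated data with as many rises as falls and no shift of all genes between groups. That trial does not cover the shift seen in these libraries. Tables and figures used Python 3.11.15, pandas 2.3.3 and matplotlib 3.10.9.

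Read totals were estimated from single-transcript entries and GENCODE lengths, matched for 97.6% of entries; between 71.3% and 73.8% of low values were whole to within 0.1 reads, too few for a count model, and read numbers are approximate. Libraries are paired by the experiment number in their titles and by the separate tables; deviations of same-numbered libraries correlated at 0.377.

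The 7 genes and all lists were chosen with earlier results of these data known. Named genes are the 7, Irf8, called genes of each list (otherwise the 2 with the largest ratio), tested genes within 500 kb of Gatm and the 5 nearest profiles. Markers and untested neighbours named in the text were picked with their values known, and others are marked as chosen later. Some items are not reported here. Plasma cell, NK cell, erythroid and platelet, and stromal marker lists were summed as well: their sums were 29.1 and 16.0, 0.0723 and 0.0726, 3.01 and 2.81, and 3.02 and 3.14 RPKM in the libraries labelled Irf8 cKO, against 38.6 and 22.2, 0.0933 and 0.0753, 2.71 and 2.06, and 2.36 and 4.12 RPKM in Ctrl.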

Additional observations from a re-analysis of the deposited data

How the results depend on the processing

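Gatm was lower in the libraries labelled Irf8 cKO in every setting tried. Its mean log2 ratio, -2.07, was -1.76 after scaling, ran from -2.24 to -1.90 when 1 library was left out, and was -2.64 and -3.55 with pseudocounts of 0.5 and 0.1. None of the other 6 creatine genes was called in any setting, but only the fit without a filter tested 4 of them. Over all genes, 71 fell and 6 rose as reported. The counts were 6 and 2 after median-of-ratios scaling, 0 and 0 with no filter (1694 and 291 at an unadjusted p under 0.05), and 19 and 2 with no replicate block. Leaving out 1 library, without the block, gave from 0 to 1448 lower and from 0 to 9 higher: 0 and 0 without Ctrl 1 (31 and 7 at an unadjusted p under 0.05), 5 and 0 without Ctrl 2 (91 and 8), 1448 and 9 without Irf8 cKO 1, and 13 and 4 without Irf8 cKO 2. Of the genes of neighbouring metabolism, 1 was called as reported, and 0 were after scaling, with no filter or with no replicate block (3, 16 and 3 at an unadjusted p under 0.05). Leaving out 1 library gave from 0 to 19, with 19 only without the library labelled Irf8 cKO 1. Among the neighbours of Gatm the count of 0 became 1 without that library (Bloc1s6) and ran from 0 to 1. Without the block, with all 4 libraries kept, S100a8, S100a9 and Ngp were still called. Irf8 and the named list and neighbour genes stayed uncalled there. Without the filter S100a8, S100a9, Ngp, Ms4a1 and Cd2 were not called (limma adjusted p from 0.103 to 0.310). Without Irf8 cKO 1 the ratios of Odc1, Azin1, Shmt2 and Psat1 were -1.37, -1.08, -1.06 and -1.25. Those of Mat2b, Vdac1 and Vdac2 were -0.72, -1.20 and -1.25. Without Irf8 cKO 2 they were, in the same order, -0.20, -0.23, -0.26, -0.06, -0.23, -0.56 and -0.23. Among tested genes Slc28a2 (0.0395) and Spg11 (0.0739) changed sign after scaling. The Irf8 ratio was 0.564 after scaling, and with 1 library left out it ran from -0.311 without Irf8 cKO 1 to 0.465 without Irf8 cKO 2. Ratios near 0 also changed sign in Ckb (-0.00012 without Irf8 cKO 1) and in Ckm (-0.0082 without Ctrl 1 and -0.021 without Irf8 cKO 1). The cause of these changes was not tested. Gamt, Slc6a8 and Ckm rested on at most about 24 reads in any library, so their ratios are poorly resolved at this depth. Ckmt1 and Ckmt2 were at 0 in all 4 libraries and gave no ratio.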
